A study of Mus musculus with 6 samples.

Results

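The BCL2 family is the group of proteins that sets whether the outer membrane of the mitochondrion is opened during apoptosis. Survival members (BCL2, BCL-xL from BCL2L1, BCL-w from BCL2L2, and MCL1) hold the pore formers in check, the effectors (BAX, BAK from BAK1, and BOK) form the pore, and the BH3-only members (BIM from BCL2L11, BAD, BID and BMF) either occupy the survival proteins or activate the effectors. Survival of brain tumour cells and of transformed astrocytes is known to lean on BCL-xL and MCL1. The 10 genes described here, BCL2, BCL2L1, BCL2L2, MCL1, BAK1, BOK, BCL2L11, BAD, BID and BMF, were found by their symbols among the 23282 rows of the tables, and all 10 were present once.

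Control libraries came from Ink4a -/- astrocytes of mouse brain, a cultured line that lacks the Ink4a/Arf locus, that received pcDNA3.1-puro without an insert. JAG1 libraries came from cells that carry the same line name in the labels and received pcDNA3.1-JAG1-puro, which carries JAG1, a ligand of the NOTCH receptors. Both groups held 3 libraries and were grown in DMEM with 10% fetal bovine serum, and the labels also give the controls the genotype "WT", although the Ink4a -/- background is named for all 6. The time after transfection and whether the cells were a pool or a clone were not given in the sources used here, and the same holds for whether replicate libraries stem from separate cultures, so that p-values measure only the spread between these libraries, which may be technical.

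The libraries held between 14341634 and 20489062 reads counted on genes, and 3 reads correspond to between 0.148 and 0.206 CPM. Jag1 itself stood at 10.3 ± 1.18 CPM in the control and 14.2 ± 0.862 CPM in the JAG1 libraries (SD, n = 3). This was a log2 fold change of 0.46 ± 0.11 (SE) with an adjusted p of 0.00446 in edgeR's quasi-likelihood test. Whether reads from the plasmid are counted as Jag1 was not given in the sources used here. If they are, they cannot be told apart from reads of the cell's own gene, and if not, this value misses the transfected JAG1. Of 10 astrocyte markers, Gfap and Aqp4 were at 0 in all libraries, and Slc1a2 and Slc1a3 did not exceed 2 reads. The other 6 were lower in the JAG1 libraries, where 27.7% of all tested genes were called lower by the rule given below. The 10 markers had a summed level of 337 to 398 CPM in the control and 123 to 137 CPM in the JAG1 libraries, most of it from Sox9 and Gja1. Of 5 fibroblast markers Lum was at 0 and the other 4 were lower, with sums of 501 to 549 and 228 to 264 CPM. All 4 Y-linked genes measured were higher in the JAG1 libraries, with a summed level of 120 to 122 CPM in the control and 249 to 264 CPM in the JAG1 libraries. The median log2 fold change was 0.60 on chromosome 19 and -0.54 on chromosome 15, against -0.05 to 0.05 on each of the other autosomes and on X. A difference between the cells of the 2 groups other than the transfected JAG1, in the line or its chromosomes, cannot be told apart from JAG1 in any comparison made here. The part of these shifts in the results on the BCL2 family was not tested, except where values are given beside a gene. In bulk RNA, fewer cells of a type and less RNA per cell cannot be told apart.

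Transcripts of the survival members and of the BH3-only members moved in both directions, and of the effector members BOK fell. Of the 10 members, 4 rose in the JAG1 libraries (BCL2L1, MCL1, BCL2L11 and BAD), 3 fell (BOK, BCL2 and BID), BAK1 and BCL2L2 did not pass the threshold, and BMF was below the filter on low counts. A gene was called when its p, adjusted by the Benjamini-Hochberg method over all 11712 tested genes, was under 0.05. By the same rule 55.1% of all tested genes were called, 27.4% as higher and 27.7% as lower, so that 7 called members of 9 tested were read against a background in which most genes were called. The median log2 fold change of the 9 tested members was 0.31, and that of all tested genes was 0.0039. With a fold of at least 1.5 in addition, BCL2L11 and BAD were higher and BOK was lower, where 26.5% of all tested genes passed, 11.9% as higher and 14.6% as lower. The libraries of the 2 groups did not overlap in the 7 called members, and 62.0% of all tested genes had no overlap.

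**Figure D1:**
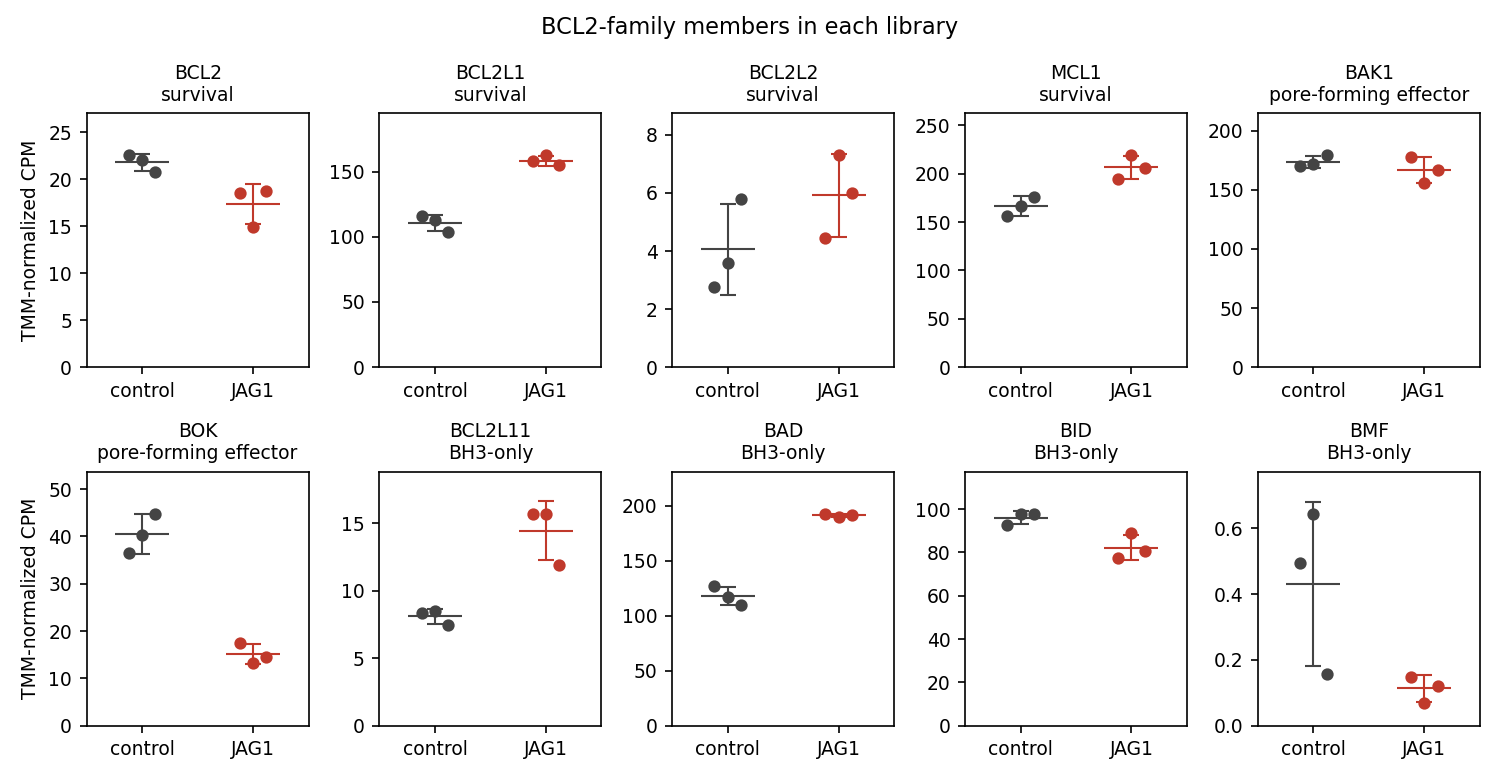
TMM-normalized CPM (y axis, starting at 0) of the 10 members in the 3 control and the 3 JAG1 libraries; each point is 1 library, and the bar and whiskers are the mean and SD. The JAG1 points of BCL2L1, MCL1, BCL2L11 and BAD lie above all control points, those of BOK, BCL2 and BID below them, those of BAK1 and BCL2L2 overlap with the control points, and BMF had at most 12 reads in a library.

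Among the survival members, the abundant genes rose and the rarer founding member fell. MCL1, a short-lived protein that restrains BAK and BIM, had 156, 167 and 176 CPM in the control libraries and 195, 219 and 206 CPM in the JAG1 libraries. All JAG1 values lay above all control values. Its log2 fold change was 0.31 ± 0.062 (SE), or 1.24-fold, with an adjusted p of 0.00138 in edgeR's quasi-likelihood test. BCL2L1 had 116, 113 and 104 CPM in the control and 158, 162 and 155 CPM in the JAG1 libraries. Its rise, 1.43-fold, was the clearest of the survival genes, with no overlap, a log2 fold change of 0.52 ± 0.057 and an adjusted p of 1.61e-05. BCL2 went the other way, with 22.5, 22.1 and 20.7 CPM in the control and 18.5, 14.9 and 18.7 CPM in the JAG1 libraries. The control values were close to each other and all above the JAG1 values, of which replicate 2 was the lowest. The log2 fold change was -0.32 ± 0.10 with an adjusted p of 0.0182, and without JAG1 replicate 2 it was -0.22 with an adjusted p of 0.0671, past the threshold no longer. Without control replicate 2 the adjusted p was 0.0575.

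BCL2L2 had 2.77, 3.60 and 5.81 CPM in the control and 4.44, 7.29 and 6.01 CPM in the JAG1 libraries. The groups overlapped, since control replicate 3 exceeded JAG1 replicate 1. Its log2 fold change of 0.53 had a 95% interval of -0.05 to 1.11 and an adjusted p of 0.108, which leaves both no change and a rise as large as that of BAD within the interval. Without control replicate 3 the log2 fold change was 0.87 with an adjusted p of 0.00649, and with all 6 libraries it was called without the filter on low counts (0.53, adjusted p = 0.0300) and with the replicate number as a block (0.56, adjusted p = 0.0279). Summed over the 4 survival genes, the level was 297, 306 and 307 CPM in the control and 376, 404 and 386 CPM in the JAG1 libraries, without overlap. MCL1 and BCL2L1 made up most of it in both groups.

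The effectors were split. BOK, an effector that is held down by degradation of its protein and does not need BH3-only activators, had 36.4, 40.3 and 44.8 CPM in the control and 17.5, 13.3 and 14.5 CPM in the JAG1 libraries. Every JAG1 library had less than the lowest control library, and this was the largest change among the tested members. The log2 fold change was -1.41 ± 0.11 (SE), a level 2.67-fold lower, with an adjusted p of 1.19e-06 in edgeR's quasi-likelihood test. It lay at percentile 5.74 of the log2 fold changes of all tested genes. BAK1 had 170, 172 and 179 CPM in the control and 178, 156 and 166 CPM in the JAG1 libraries, and the groups overlapped. Its log2 fold change was -0.06 with a 95% interval of -0.18 to 0.07 and an adjusted p of 0.437. BAX, the effector that was not among the 10 genes, had 54.5, 62.7 and 64.1 CPM in the control and 70.5, 72.5 and 82.8 CPM in the JAG1 libraries. It rose by 0.32 ± 0.083 on the log2 scale with an adjusted p of 0.00743.

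Within a library the read counts of 2 effectors can be set against each other without any scaling between libraries. The log2 ratio of BOK to BAK1 was -2.22, -2.09 and -2.00 in the control and -3.35, -3.55 and -3.53 in the JAG1 libraries. That of BAX to BAK1 was -1.64, -1.45 and -1.48 in the control and -1.34, -1.11 and -1.01 in the JAG1 libraries. BOK thus made up a smaller part and BAX a larger part relative to BAK1 in each JAG1 library than in any control library.

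Of the BH3-only members, BCL2L11 and BAD rose and BID fell. BCL2L11 encodes BIM, which binds all survival proteins and activates BAX and BAK. It had 8.35, 8.54 and 7.48 CPM in the control and 15.7, 15.7 and 11.9 CPM in the JAG1 libraries. JAG1 replicate 3 was the lowest of its group and still above all controls. The log2 fold change was 0.83 ± 0.13 (SE), 1.78-fold, with an adjusted p of 0.000221 in edgeR's quasi-likelihood test. BAD, which occupies BCL-xL and BCL2 unless it is phosphorylated and held by 14-3-3 proteins, had 127, 117 and 110 CPM in the control and 193, 190 and 191 CPM in the JAG1 libraries. The JAG1 values were nearly equal and all above the control values. The log2 fold change was 0.70 ± 0.059, 1.62-fold, with an adjusted p of 2.01e-06.

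BID is cut by caspase-8 and carries the death receptor signal to the mitochondrion. It had 92.4, 97.8 and 97.7 CPM in the control and 77.2, 88.8 and 80.6 CPM in the JAG1 libraries, without overlap. The log2 fold change was -0.22 ± 0.065 with an adjusted p of 0.0127. This call was lost on leaving out control replicate 2, JAG1 replicate 1 or JAG1 replicate 3, with adjusted p-values of 0.0555, 0.0670 and 0.0506. BMF, a BH3-only gene whose product is tethered to myosin motors, was close to the limit of detection, with 10, 12 and 3 reads in the control and 3, 1 and 2 reads in the JAG1 libraries. Over the pooled reads of the groups, scaled by library size, the control stood 3.67-fold above JAG1, with an exact 95% counting interval of 1.47 to 10.9 that covers counting error only. Control replicate 3 and JAG1 replicate 1 each held 3 reads, and BMF was not tested.

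**Figure D2:**
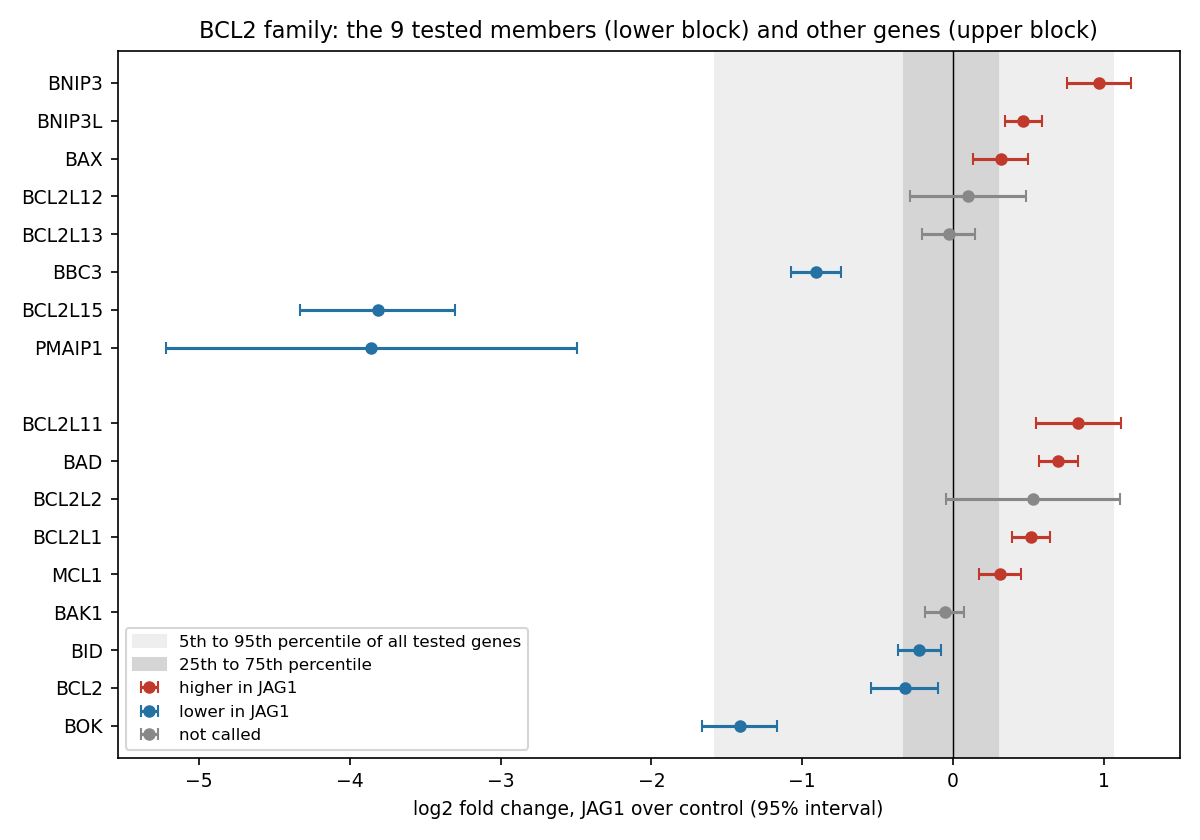
Log2 fold change of JAG1 over control (x axis) with its 95% interval for the 9 tested members and the 8 tested other BCL2-family genes; the grey bands hold the central part of all tested genes. BOK at -1.41 is the only member whose fall exceeds 1.5-fold, BCL2L11 at 0.83 and BAD at 0.70 lie at the upper end, and PMAIP1 and BCL2L15 near -3.8 lie outside the band between the 5th and 95th percentiles.

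Upstream sequences came from RefSeq, build GRCm38.p6, where the submitters' processing notes name GRCm38 and mm10 without a version. The 3 members past 1.5-fold are given with the 250 bases upstream of their first start site, since these genes moved most. Their upstream sequences were searched on both strands for the SMAD3 element GTCTG, the RBPJ core TGGGAA (RBPJ is the DNA-binding partner of NOTCH) and the FOXO site GTAAACA, and matches are in capitals. The BOK window is chr1:93685325-93685574, plus strand, that of BCL2L11 is chr2:128125788-128126037, plus strand, and that of BAD is chr19:6941611-6941860, plus strand.
BOK: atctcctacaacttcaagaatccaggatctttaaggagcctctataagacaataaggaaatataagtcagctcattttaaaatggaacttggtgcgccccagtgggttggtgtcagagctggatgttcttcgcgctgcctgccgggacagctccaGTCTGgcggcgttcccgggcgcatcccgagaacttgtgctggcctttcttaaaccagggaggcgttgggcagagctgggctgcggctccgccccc
BCL2L11: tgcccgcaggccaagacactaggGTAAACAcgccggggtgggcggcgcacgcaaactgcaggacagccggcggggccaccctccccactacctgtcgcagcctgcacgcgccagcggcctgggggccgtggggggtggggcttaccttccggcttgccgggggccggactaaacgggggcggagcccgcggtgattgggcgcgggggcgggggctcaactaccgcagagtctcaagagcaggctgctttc
BAD: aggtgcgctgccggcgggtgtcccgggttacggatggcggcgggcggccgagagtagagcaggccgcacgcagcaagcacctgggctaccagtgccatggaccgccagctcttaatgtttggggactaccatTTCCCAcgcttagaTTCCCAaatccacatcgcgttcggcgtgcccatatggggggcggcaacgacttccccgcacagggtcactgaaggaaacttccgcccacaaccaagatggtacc

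The BOK window held GTCTG at position -95 from the start, the BCL2L11 window held GTAAACA at -227, and the BAD window held TTCCCA, the reverse complement of the RBPJ core, at -118 and at -104. The windows held 12, 24 and 21 CpG dinucleotides with a GC content of 55.2%, 72% and 62.8%, respectively. Over windows from 250 bases before to 50 bases after the start, all 10 members had an entry, with 16 entries in all. The SMAD3 element was found in 6 of the 16 entries, those of BAD, BAK1, BCL2L1, BCL2L11, BMF and BOK (37.5%), and in 49.6% of all 32851 promoter entries. The RBPJ core was found in 4 of the 16 entries (25%), those of BAD, BCL2L2 and BMF, and in 25.6% of all entries. The FOXO site was found in 1 of the 16 entries (6.25%), that of BCL2L11, and in 3.65% of all entries. A match gives the letters in the window and not a bound site.

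BAD lies on chromosome 19 (chr19:6941861-6951905), where 292 of 398 tested genes were higher and 31 were lower in the JAG1 libraries. Its log2 fold change exceeded the median of that chromosome by 0.10. Among the 20 tested genes nearest to it 18 were higher and 1 was lower, and their median log2 fold change was 0.80, above that of BAD itself. Among the 20 neighbours of BOK (chr1:93685575-93695770) 5 were higher and 5 were lower, around a median of 0.11. BOK, itself at -1.41, lay far below this median but within the range of its neighbours. GPC1 (-1.49) and MTERF4 (-1.46) among them fell slightly more than BOK. BCL2L11 (chr2:128126038-128162547) had neighbours with a median of 0.08, and BCL2L1 (chr2:152758732-152833803) had neighbours with a median of -0.08. Around MCL1, itself at 0.31, 8 of 20 neighbours were higher and 4 were lower, with a median of 0.15. Around BID, itself at -0.22, 5 were higher and 4 were lower, with a median of -0.05. BCL2 (chr1:106538176-106714290) fell, while 10 of its 20 neighbours were higher and 3 were lower, with a median of 0.22. The 20 neighbours reach 0.334 Mb from BAD, 2.19 Mb from BOK and 12.8 Mb from BCL2, so that those of BCL2 are not its close surroundings. The sets of BOK and BCL2 share ATG4B, DTYMK, ING5, D2HGDH and FAM174A and are not independent. These neighbour values were added after the data had been seen.

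**Figure D3:**
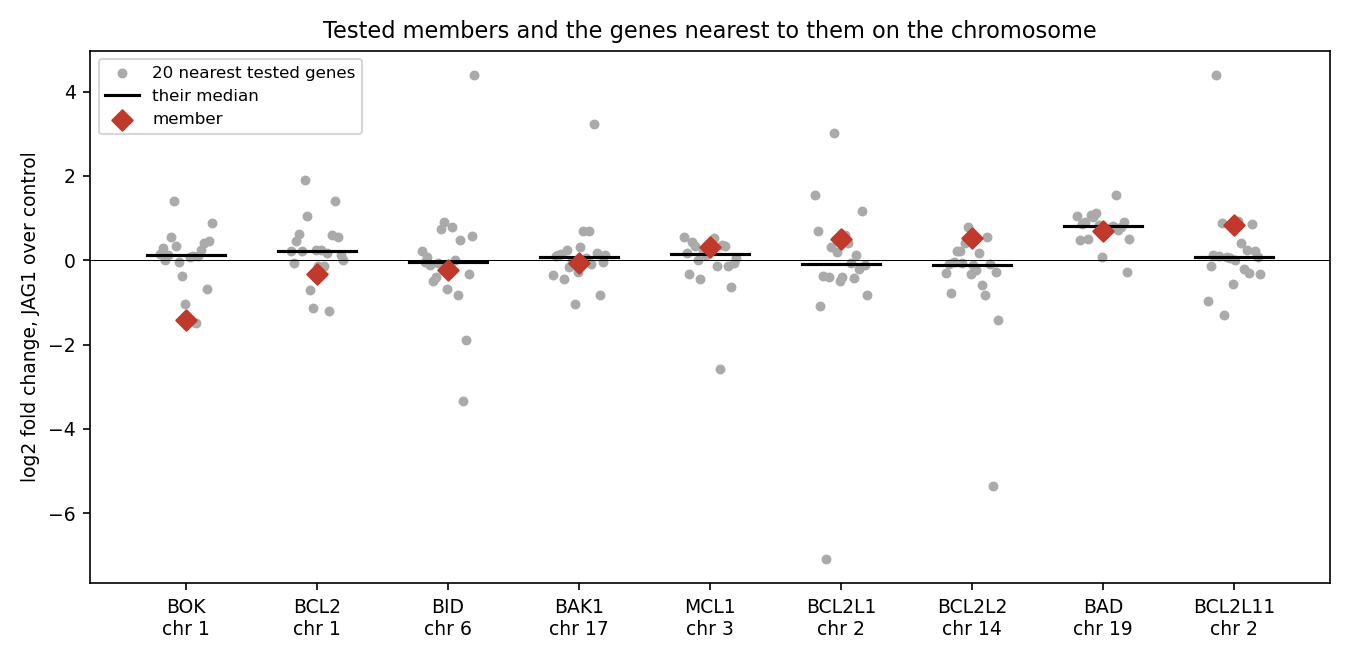
Log2 fold change of JAG1 over control (y axis) for each tested member (diamond), the 20 tested genes nearest to it on its chromosome (grey points) and the median of these (black line). BAD sits among neighbours that are mostly higher, with a median of 0.80, while BOK at -1.41 lies far below its neighbours' median of 0.11. The 20 genes reach 0.334 Mb from BAD, 2.19 Mb from BOK and 12.8 Mb from BCL2.

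Some reads could be shared with another gene. The annotation of GENCODE release M21 places Bcl2l13 on the strand opposite BID with both 3' ends overlapping, and BCL2L13 did not pass the threshold, with a log2 fold change of -0.03 and a 95% interval of -0.21 to 0.15. Ggnbp1 covers the 3' end of BAK1 on the opposite strand but held at most 11 reads in a library. Gm20521 covers the 3' end of BCL2L2 on the same strand and has no row of its own, so that reads of the 2 genes cannot be told apart. Whether strand was used in counting was not given in the sources used here.

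Reads of this method come from the 3' end of a transcript, so that CPM can be compared between genes without division by length. In the control the order by mean CPM was BAK1 (174), MCL1 (167), BAD (118), BCL2L1 (111), BID (96.0), BOK (40.5), BCL2 (21.8), BCL2L11 (8.12), BCL2L2 (4.06) and BMF (0.432). BAK1 and MCL1 overlapped in their libraries, as did BAD and BCL2L1. In the JAG1 libraries the order was MCL1 (207), BAD (191), BAK1 (167), BCL2L1 (158), BID (82.2), BCL2 (17.4), BOK (15.1), BCL2L11 (14.4), BCL2L2 (5.91) and BMF (0.113). There BAK1 overlapped BCL2L1, and BOK overlapped both BCL2 and BCL2L11. BAK1 was thus the most abundant member in the control and the third in the JAG1 libraries, and BOK came down to the level of BCL2 and BCL2L11.

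The balance of transcripts between death-promoting and survival members depended on the pair. The log2 ratio of BCL2L11 to MCL1 was -4.23, -4.29 and -4.56 in the control and -3.64, -3.80 and -4.11 in the JAG1 libraries. BCL2L11 therefore gained on MCL1 by 0.51 on average, on BCL2L1 by 0.30 and on BCL2 by 1.15, each without overlap of the libraries. BAD gained 0.39 on MCL1, 0.18 on BCL2L1 and 1.03 on BCL2, again without overlap. The log2 ratio of BID to BCL2L1 went from -0.32, -0.21 and -0.09 in the control to -1.04, -0.87 and -0.94 in the JAG1 libraries. BID lost 0.74 against BCL2L1 and 0.54 against MCL1, whereas its ratio to BCL2 overlapped between the groups. The log2 ratio of BAK1 to BCL2L1 went from 0.56, 0.61 and 0.79 to 0.17, -0.06 and 0.11, a loss of 0.58 on average, and BAK1 lost 0.37 against MCL1. BAK1 gained 0.28 on BCL2. Every ratio to BCL2L2 overlapped between the groups apart from that of BOK. These ratios describe transcripts and carry no test.

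**Figure D4:**
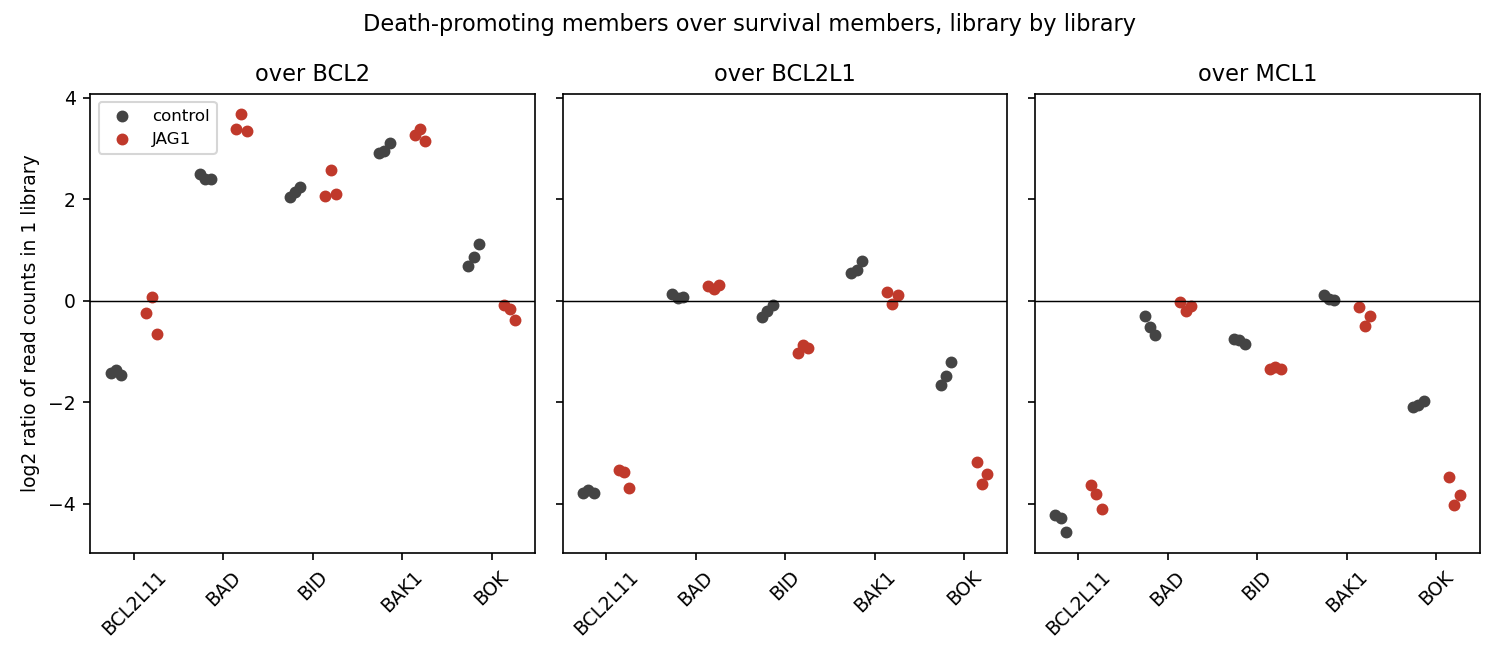
Log2 ratio of the read counts of 5 death-promoting members to BCL2, BCL2L1 and MCL1 (y axis), with 1 point per library for the control and the JAG1 libraries. BCL2L11 and BAD rise against all 3 survival genes, BOK falls against all 3, and BID and BAK1 fall against BCL2L1 and MCL1.

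Summed levels by role showed where the bulk of the transcripts lay. The 4 BH3-only genes summed to 228, 224 and 215 CPM in the control and to 286, 294 and 284 CPM in the JAG1 libraries. This rise came from BAD: without it the sum was 105 ± 2.92 CPM in the control and 96.7 ± 6.75 CPM in the JAG1 libraries (SD, n = 3). BAK1 and BOK summed to 207, 212 and 224 CPM in the control and 196, 169 and 181 CPM in the JAG1 libraries, without overlap. With BAX added, the effectors summed to 275 ± 13.5 CPM in the control and 257 ± 13.3 CPM in the JAG1 libraries, and the libraries overlapped. The ratio of the survival sum to the BH3-only sum was 1.36 ± 0.0610 in the control and 1.35 ± 0.0285 in the JAG1 libraries, with overlap. With BAD left out, the same ratio was 2.90 ± 0.0408 in the control and 4.02 ± 0.151 in the JAG1 libraries. The ratio of the survival sum to BAK1 and BOK was 1.42 ± 0.0408 in the control and 2.15 ± 0.229 in the JAG1 libraries. With BAX added to the effectors it was 1.11 ± 0.0374 and 1.51 ± 0.135.

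The other genes of the family were measured as a list of 16, of which 8 passed the filter, 3 rose and 3 fell. Of all tested genes 27.4% were called higher and 27.7% lower. BBC3 encodes PUMA, a BH3-only protein induced by p53. It had 41.8, 40.6 and 39.7 CPM in the control and 20.5, 23.0 and 21.7 CPM in the JAG1 libraries. The groups were far apart compared with their spread, with a log2 fold change of -0.91 ± 0.075 (SE) and an adjusted p of 1.63e-06 in edgeR's quasi-likelihood test. PMAIP1 encodes NOXA, a BH3-only protein that targets MCL1 and is likewise a p53 target. It had 29, 39 and 53 reads in the control and 1, 6 and 0 reads in the JAG1 libraries. Its adjusted p was 0.000292, and the pooled reads of the control stood 15.2-fold above those of JAG1, with an exact 95% counting interval of 7.17 to 38.7. With BBC3 and PMAIP1 counted among the BH3-only genes, the ratio of the survival sum to the BH3-only sum was 1.14 ± 0.0474 in the control and 1.25 ± 0.0221 in the JAG1 libraries.

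BCL2L15, a little-studied relative, had 205, 176 and 261 reads in the control and 20, 10 and 10 reads in the JAG1 libraries. This was a log2 fold change of -3.81 ± 0.23 with an adjusted p of 1.34e-07. The mitophagy receptor genes rose: BNIP3 from 7.74 ± 0.207 to 15.2 ± 0.655 CPM (adjusted p = 7.31e-06) and BNIP3L from 70.3 ± 2.38 to 97.2 ± 2.21 CPM (adjusted p = 3.58e-05), each SD with n = 3. BCL2L12 and BCL2L13 did not pass the threshold, with 95% intervals of -0.28 to 0.48 and -0.21 to 0.15 on the log2 scale. Of the 8 genes below the filter, BCL2A1C, BCL2L10, HRK and BCL2L14 had no read in any library. BCL2A1A, BCL2A1B and BCL2A1D are near-identical copies, and their counts of at most 12 reads are uncertain.

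Of 23 genes whose products act on the members or control their transcription, 22 were tested, 6 rose and 6 fell. Their median log2 fold change was -0.02, and of all tested genes 27.4% were called higher and 27.7% lower. The adaptors that hold phosphorylated BAD moved in opposite directions. YWHAE, a 14-3-3 protein, went from 650 ± 31.0 CPM in the control to 1302 ± 16.0 CPM in the JAG1 libraries, a log2 fold change of 1.00 with an adjusted p of 2.84e-08. YWHAZ went from 642 ± 6.21 to 427 ± 6.66 CPM, a log2 fold change of -0.59 that lay near the median of -0.54 of its own chromosome 15. YWHAG fell by 0.30 on the log2 scale, and YWHAB, YWHAH and YWHAQ did not pass the threshold. Of the kinases that phosphorylate BAD, some were called and others were not. PIM3 rose by 1.02 on the log2 scale, against the direction of chromosome 15 on which it lies. AKT1 rose by 0.70, from 127 ± 7.14 to 207 ± 8.83 CPM. RPS6KA1 (the kinase RSK1) had 415, 374 and 335 reads in the control and 69, 43 and 56 reads in the JAG1 libraries, a log2 fold change of -2.56 with an adjusted p of 1.81e-08. AKT2, PIM1, PIM2 and the BAD phosphatase gene PPP3CA did not pass the threshold.

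Among enzymes that set the stability of MCL1 and partners of the other members, some genes were called and others were not. USP9X, which removes ubiquitin from MCL1, fell by 0.37 on the log2 scale, and FBXW7, a ubiquitin ligase for MCL1, fell by 0.25, while the ligase genes HUWE1 and BTRC did not pass the threshold. FOXO1, a factor known to drive BCL2L11 transcription, rose from 5.18 ± 0.260 to 8.75 ± 0.806 CPM with a log2 fold change of 0.75 and an adjusted p of 0.000397. FOXO3 had at most 9 reads in a library and was not tested. DYNLL2, the dynein light chain that holds BMF, fell by 0.33, and DYNLL1, that of BIM, did not pass the threshold, with a 95% interval of -0.14 to 0.13. VDAC2, which holds BAK at the mitochondrion, rose by 0.22. MTCH2, the receptor for cut BID, rose by 0.12 with an adjusted p of 0.0424, a call that was lost under 10 of 14 alternatives.

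Downstream of the mitochondrion, 17 genes of the apoptosome, the caspases and their inhibitors were all tested. Against 27.4% of all tested genes called higher and 27.7% called lower, 6 of the 17 rose and 2 fell, with a median log2 fold change of 0.10. Of those that rose, 4 encode proteins that leave the mitochondrion during apoptosis. ENDOG went from 6.39 ± 0.758 to 12.4 ± 0.997 CPM, a log2 fold change of 0.96 with an adjusted p of 5.52e-05. AIFM1, HTRA2 and CYCS rose by 0.41, 0.40 and 0.26 on the log2 scale. CASP6 fell by 1.11 on the log2 scale, from 14.1 ± 0.642 to 6.54 ± 1.15 CPM, with an adjusted p of 2.37e-05. CASP8, which cuts BID, fell by 0.29 with an adjusted p of 0.0331, and this call was lost with DESeq2 and with 5 of the 6 libraries left out in turn. APAF1, CASP9, CASP2, DIABLO and the inhibitors of apoptosis XIAP, BIRC2, BIRC3, BIRC5 and BIRC6 did not pass the threshold.

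Of 10 genes of the death receptor branch that leads to BID, 8 were tested. Against 27.4% of all tested genes called higher and 27.7% called lower, 1 of the 8 rose and 3 fell, with a median log2 fold change of -0.11. FAS, on chromosome 19, had 95, 87 and 117 reads in the control and 25, 12 and 14 reads in the JAG1 libraries. Its log2 fold change of -2.37 (adjusted p = 5.61e-06) went against the median of 0.60 of that chromosome. CFLAR, the inhibitor of caspase-8 activation, went from 51.5 ± 4.86 to 75.8 ± 2.37 CPM, a log2 fold change of 0.56 with an adjusted p of 8.04e-05. TRAF2 and RIPK1, of the receptor complexes, fell by 0.47 and 0.33 on the log2 scale. TNFRSF1A, TNFRSF10B, FADD and TRADD did not pass the threshold, FASL was at 0 in all libraries, and TNFSF10 had at most 4 reads.

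**Figure D5:**
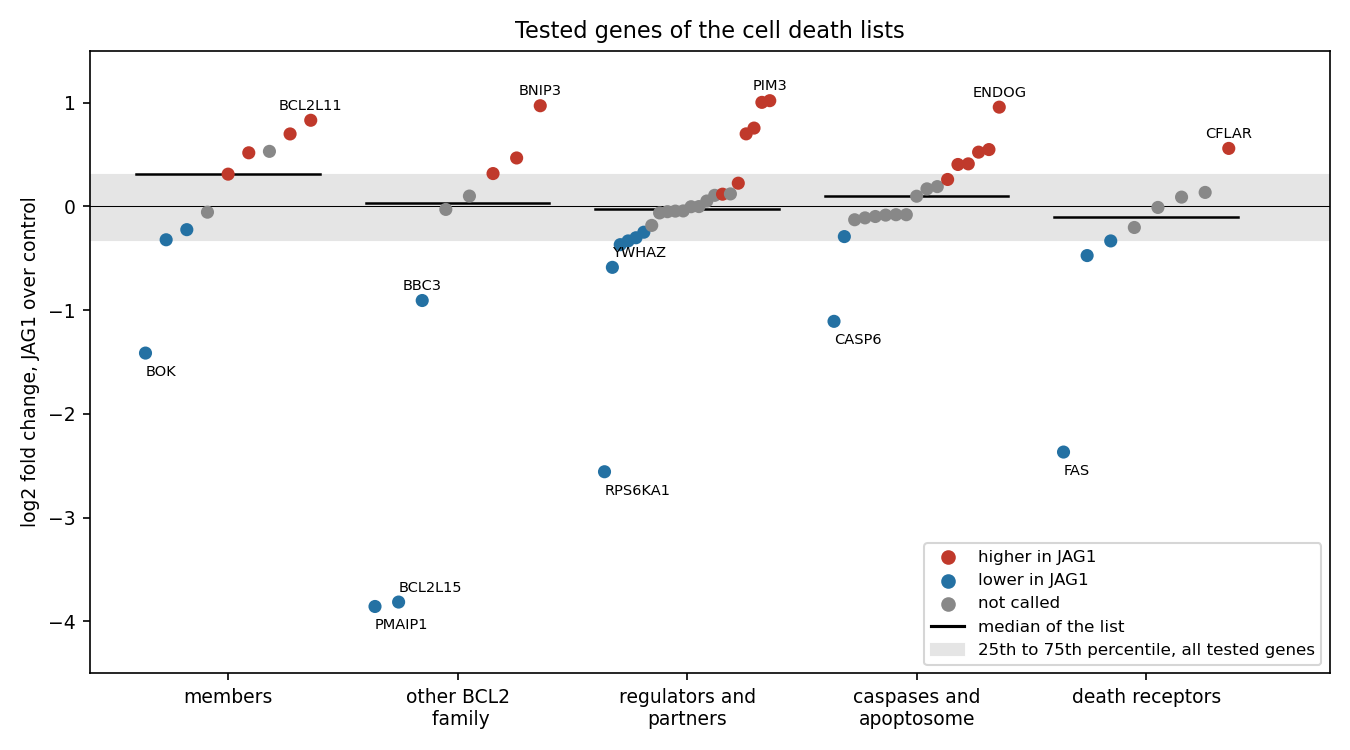
Log2 fold change of JAG1 over control (y axis) for each tested gene of the 5 cell death lists, coloured by its call, with the median of each list as a line and the central range of all tested genes in grey. The list medians lie between -0.11 and 0.31, and single genes such as PMAIP1, BCL2L15, RPS6KA1, FAS and BOK fall far below them.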

How the data were processed

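RNA of 3 control and 3 JAG1-transfected libraries of Ink4a/Arf-/- mouse astrocytes was extracted with Trizol and prepared with the QuantSeq 3' mRNA kit, per the labels. The submitters' processing notes name Bowtie2, bedtools and edgeR, without versions, and the builds GRCm38 and mm10. The authors deposited 1 table per library with raw read counts and a normalized level on the log2 scale; how the log2 values were normalized was not given in the sources used here, and they were used only for an alternative. Depth ranged from 14341634 to 20489062 counts, and intervals on pooled reads cover counting error only.

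Raw counts were analysed in R 4.3.3 with edgeR 4.0.16. Its filter on low expression (filterByExpr, minimum count 10) kept 11712 of 23282 rows, TMM factors were applied, and JAG1 was compared with control by the quasi-likelihood test with Benjamini-Hochberg adjustment over all tested rows and a threshold of 0.05. CPM are TMM-normalized. Standard errors were derived from the F statistic. An exact permutation test of 3 against 3 libraries cannot give a two-sided p under 0.1. No pair of libraries was identical. Chromosomes, coordinates and promoters came from RefSeq GRCm38.p6, matched by symbol, and overlaps of genes from GENCODE M21.

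The members, the lists of genes and markers and the tests were chosen with earlier results of these data known. The text names all 10 members, every other family gene that passed the filter and, from each other list, the 3 called genes that rose most, the 3 that fell most and the called genes whose products act on a called member; uncalled list genes are named without selection. A few genes of the lists that this rule covers are not reported here. Alternatives were DESeq2 1.42.0, library size alone, upper-quartile scaling, no filter, a replicate block, limma-voom (limma 3.58.1), limma on the deposited log2 values, a fold of at least 1.5 and leaving out each library. On data simulated from these libraries, 11586 genes were fitted, of which 11387 were unchanged. Of 100 genes changed 2-fold 93% were called, of 99 genes changed 1.5-fold 74.7%, and of the unchanged genes 0.132%. In the data themselves 55.1% of tested genes were called, and the Benjamini-Hochberg cutoff on p loosens as more genes are called. The simulated shares, that of unchanged genes above all, therefore do not give the rates for these data.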

Additional observations from a re-analysis of the deposited data

How the results depend on the processing

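The log2 fold changes of BCL2L1 (0.47 to 0.55), MCL1 (0.27 to 0.35), BCL2L11 (0.76 to 0.95), BAD (0.64 to 0.75) and BOK (-1.54 to -1.33) kept their direction and their call under all 14 alternatives computed for single genes. BCL2 kept its call under 12 of them and BID under 11, and those that lost it left out a library. BCL2L2, not called, passed the threshold without a filter (adjusted p = 0.0300), with a replicate block (0.0279) and without control replicate 3. With a fold of at least 1.5 the counts were 2 members higher and 1 lower, 1395 genes higher and 1711 lower, 1 other BCL2-family gene higher, 2 regulators lower, 1 caspase or apoptosome gene higher and 1 lower, and 0 death receptor genes higher and 1 lower. DESeq2 called 1 caspase gene lower, and library size alone called 2 death receptor genes higher. On leaving out each library in turn, the members called lower were 1 to 3 (1 without control replicate 2, where BCL2 and BID were lost), and the caspase and apoptosome genes called lower were 1 to 2 (1 without control replicate 2 or without any of the JAG1 libraries). BCL2L12, not called, ranged from -0.038 to 0.24 on leaving out each library, and changed sign without control replicate 2 (-0.038) and without JAG1 replicate 2 (-0.0084). PMAIP1 ranged from -5.95 to -3.31, as 6 of its 7 reads in the JAG1 libraries were in replicate 2. Scaling moved the median of all genes to between -0.021 and 0.018. TMM factors taken without chromosomes 15, 19 and Y, an alternative chosen after seeing the data, left 4 members higher and 3 lower. The cause of these differences was not tested beyond the libraries or limits named.

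Controls and JAG1 libraries share replicate numbers, but the labels do not say what a number marks. Deviations from the group means correlated at 0.148, 0.061 and 0.119 between libraries of the same number, so that the numbers were not taken to pair them, although each library correlated best with its own number, a hint from the data only. With the replicate block, 5 members were called higher, with BCL2L2 the fifth, and 3380 genes were called higher and 3331 lower. Depth limits the statements on BMF and FOXO3, which were below the filter and were not tested. It also limits those on the genes at 0, for which a change was not detectable.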

Other observations

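Markers of other cell types were measured beside those of astrocytes and fibroblasts. Of 7 microglia markers 1 was tested: Cx3cr1, a chemokine receptor gene, had 10, 17 and 14 reads in the control and 23, 19 and 22 reads in the JAG1 libraries, with an adjusted p of 0.0449 in edgeR's quasi-likelihood test, which was lost under 9 of 14 alternatives. The 7 markers summed to 0.938 to 1.66 CPM in the control and 1.74 to 2.41 CPM in the JAG1 libraries. Of 8 oligodendrocyte lineage markers, Mog, Mag, Sox10 and Cspg4 were at 0, and Pdgfra did not pass the threshold. Of 6 neuron markers, Snap25 and Syt1 were at 0. Map2, a microtubule-associated protein gene, rose by 1.03 on the log2 scale (25.1 ± 1.07 to 51.3 ± 1.13 CPM) and Stmn2 fell by 3.03. None of 5 endothelial markers passed the filter on low counts. Cdkn2a, the gene of the deleted Ink4a/Arf locus, had 0 to 5 reads in a library.

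Astrocyte and fibroblast markers that passed the filter fell, where 27.7% of all tested genes were called lower. S100b, with 28, 12 and 15 reads in the control and 10, 2 and 2 in the JAG1 libraries, lost its call in some refits. These left out control replicate 1, JAG1 replicate 2 or JAG1 replicate 3. The BCL2 family moved both ways in the same libraries. BOK, BCL2, BID, BBC3, PMAIP1 and BCL2L15 fell, and BCL2L1, MCL1, BCL2L11, BAD, BAX, BNIP3 and BNIP3L rose. Sox9, a transcription factor of glial and skeletal lineages, fell by 3.33 on the log2 scale, and Aldh1l1, a folate enzyme gene used to mark astrocytes, fell from 2.98 ± 0.545 to 0.781 ± 0.0215 CPM. Col3a1, a collagen gene, fell from 199 ± 23.8 to 61.2 ± 2.88 CPM and Pdgfrb, a growth factor receptor gene of mesenchymal cells, from 82.2 ± 1.75 to 26.1 ± 3.34 CPM (SD, n = 3 in each group). The part of these marker changes in the levels of the BCL2 family was not tested.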
